A study of Homo sapiens with 4 samples.

Results

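The proteasome genes of 2 human bladder cancer cell lines are described here, as mRNA levels in T24 and 5637 cells kept without or with protodioscin, a steroidal saponin of plants such as fenugreek. The genes were chosen by name: protein-coding genes whose symbol is PSMA, PSMB, PSMC, PSMD, PSME, PSMF or PSMG followed by a number, without the immunoproteasome genes PSMB8, PSMB9 and PSMB10. This gave 45 of the 60617 gene IDs in the deposited table. The naming rule itself uses no measured value. There were 4 libraries in 4 groups: untreated T24, T24 with 60 µM protodioscin, untreated 5637 and 5637 with 70 µM protodioscin, each after 6 h in the same serum-containing medium. The doses are those of the sample titles, while millimolar is written beside the same figures in the treatment description, and the controls are called untreated with no vehicle named. T24 and 5637 are established lines, so each stands for 1 tumour, and no group had a replicate.

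The proteasome is the protease that degrades proteins tagged with ubiquitin. Its core particle is a barrel of stacked rings, with outer rings of alpha subunits that gate the entrance and inner rings of beta subunits, of which PSMB5, PSMB6 and PSMB7 carry the active sites. A regulatory particle caps the barrel. Its base holds a ring of ATPases that unfold substrates, and its lid holds the deubiquitinase PSMD14. Other caps (PSME1 with PSME2, PSME3, PSME4) open the core without the ATPases, and dedicated chaperones (PSMG1 to PSMG4, PSMD5, PSMD9, PSMD10) assist assembly. When proteasome activity falls, the transcription factor NFE2L1 is known to raise the transcription of proteasome genes as a group through antioxidant response elements. Interferon is known to induce PSME1, PSME2 and the immunoproteasome subunits, which replace the active beta subunits and favour the production of peptides for MHC class I.

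Values are FPKM, fragment counts scaled to transcript length and library size. The libraries were of similar depth, 1 to 1.44 times that of untreated T24 as read from the spacing of the lowest values. At 50 FPKM on a transcript of 1000 bases this corresponds to 1014 to 1458 fragments and a counting error of 0.0561 to 0.0604 on the log2 difference within a line. At 10 FPKM the error was 0.126 to 0.135, and at 2 FPKM it was 0.281 to 0.302. The keratins KRT7, KRT8 and KRT18 were at 227 FPKM or more in every library, as in epithelial cells. CDH1 and KRT5, however, were at 0.02 FPKM or less in both T24 libraries and at 69.6 FPKM or more in 5637. EPCAM was at 2.09 and 2.35 FPKM in T24, against 108 and 106 FPKM in 5637. Of 4 mesenchymal markers, FN1, CDH2 and ZEB1 were higher in T24 and VIM was higher in 5637. FN1 was at 1530 and 1419 FPKM in T24, against 235 and 191 FPKM in 5637. VIM was at 68.0 and 61.4 FPKM in T24, against 304 and 267 FPKM in 5637. Of 7 urothelial markers, GATA3 was at 14.5 to 17.6 FPKM and PPARG at 16.2 to 50.4 FPKM over the 4 libraries. UPK1B and TP63 were at 3.23 FPKM or more in both 5637 libraries and at 0.0232 FPKM or less in T24, and the other uroplakin genes (UPK1A, UPK2, UPK3A) were at 0.211 FPKM or less. The summed FPKM of 5 leukocyte markers lay between 0.161 and 0.858 and that of 4 endothelial markers between 0.0288 and 1.98. Mitochondrially encoded transcripts held 4.499% of all FPKM in untreated T24 and 3.74% with protodioscin, and 9.84% and 11.9% respectively in 5637. The 13 mitochondrial genes had a median treatment difference of -0.27 in T24 and 0.32 in 5637, and their part in the values below was not tested.

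Promoter sequences from RefSeq (GRCh38.p14) are shown for 4 members that differed between the lines and hold the pattern TGACNNNGC, for which they were picked. PSME1 and PSME2 were both at higher levels in T24, and PSMD12 and PSME4 at higher levels in 5637. PSMA2, the member most in excess in 5637, is not shown, since its window held the CCAAT box and none of the other patterns searched. The 250 bases before the listed transcription starts of each gene were searched on both strands for the antioxidant response element core TGACNNNGC, the interferon-stimulated response element core GAAANNGAA, the ETS family core CCGGAAG and the CCAAT box. None of these 4 patterns contains another, although matches may share bases. Promoters were found for 39 of the 45 genes. The first stretch lies upstream of PSME1 on the plus strand, chr14:24135944-24136157, and the second upstream of PSMD12 on the minus strand, chr17:67366628-67366827, both cut where annotated exons begin, with matches to TGACNNNGC in capitals:
PSME1: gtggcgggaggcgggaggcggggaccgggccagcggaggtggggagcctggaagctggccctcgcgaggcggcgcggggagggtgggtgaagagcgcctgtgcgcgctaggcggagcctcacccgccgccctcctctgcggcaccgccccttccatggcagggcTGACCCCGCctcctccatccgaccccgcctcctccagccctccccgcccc
PSMD12: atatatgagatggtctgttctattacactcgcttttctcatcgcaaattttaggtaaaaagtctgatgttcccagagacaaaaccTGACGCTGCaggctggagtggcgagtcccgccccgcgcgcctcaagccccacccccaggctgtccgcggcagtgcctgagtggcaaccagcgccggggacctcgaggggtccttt

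The matches of PSME2 and PSME4 (both on the minus strand) to TGACNNNGC are shown with 8 bases on each side, and that of PSME4 is on the strand opposite to the gene. They lie at chr14:24146769-24146793 and chr2:53971011-53971035:
PSME2: ctggactgTGACCCAGCcagcaccg
PSME4: cggcggctGCAGCGTCAccagcaga

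PSME2 also held a match to GAAANNGAA close to its start, at chr14:24146622-24146646. The immunoproteasome gene PSMB10, which is not a member, and the member PSMG4 held the same 9 letters, in PSMB10 at chr16:67936855-67936879 on the minus strand, and the longest run common to the PSME2 and PSMB10 windows was 12 bases. The windows of PSMB8 and PSMB9 held no match to GAAANNGAA:
PSME2: tggggagtGAAAGCGAAagcccggg
PSMB10: gtaaaggcGAAAGCGAAagcaggaa

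TGACNNNGC stood in 12 of the 39 genes with a promoter (30.8%), against 13.2% of 27305 genes of any type in the same table. They were PSMA4, PSMB3, PSMC5, PSMD3, PSMD12, PSME1, PSME2, PSME4, PSMD5, PSMD9, PSMG1 and PSMG2. CCGGAAG stood in 11 (28.2%, against 10.2%), GAAANNGAA in 4 (10.3%, against 8.41%) and CCAAT in 18 (46.2%, against 37%). The genes with TGACNNNGC included the members most in excess in T24 (PSME2 and PSME1), and PSMD9, also in excess there. PSMD12, PSME4, PSMD3, PSMB3 and PSMC5, all in excess in 5637, were included too, but not PSMA2, the member most in excess there. In the limma fit described below, these genes passed the test between the lines, and PSMA4, PSMD5, PSMG1 and PSMG2 did not. Over all genes, 35.1% were called higher in T24 and 33.9% in 5637. A match describes letters and is no proof of a bound site.

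Transcripts of 43 of the 45 genes were detected, and all 43 reached 1 FPKM in every library. PSMA8, the alpha subunit of the testis proteasome, and PSMB11, the beta subunit of the thymus proteasome, were listed at 0 in all 4 libraries. The 43 genes together made up 0.82% of all FPKM in untreated T24, 0.848% in T24 with protodioscin, 0.815% in untreated 5637 and 0.809% in 5637 with protodioscin. Their median level was 51.2 and 50.7 FPKM in T24 and 50.9 and 54.04 FPKM in 5637. The 4 libraries were thus alike in the share and median level of proteasome transcripts, as the plot of levels by subcomplex shows. These values are relative to each library and give no amount per cell.

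**Figure D1:**
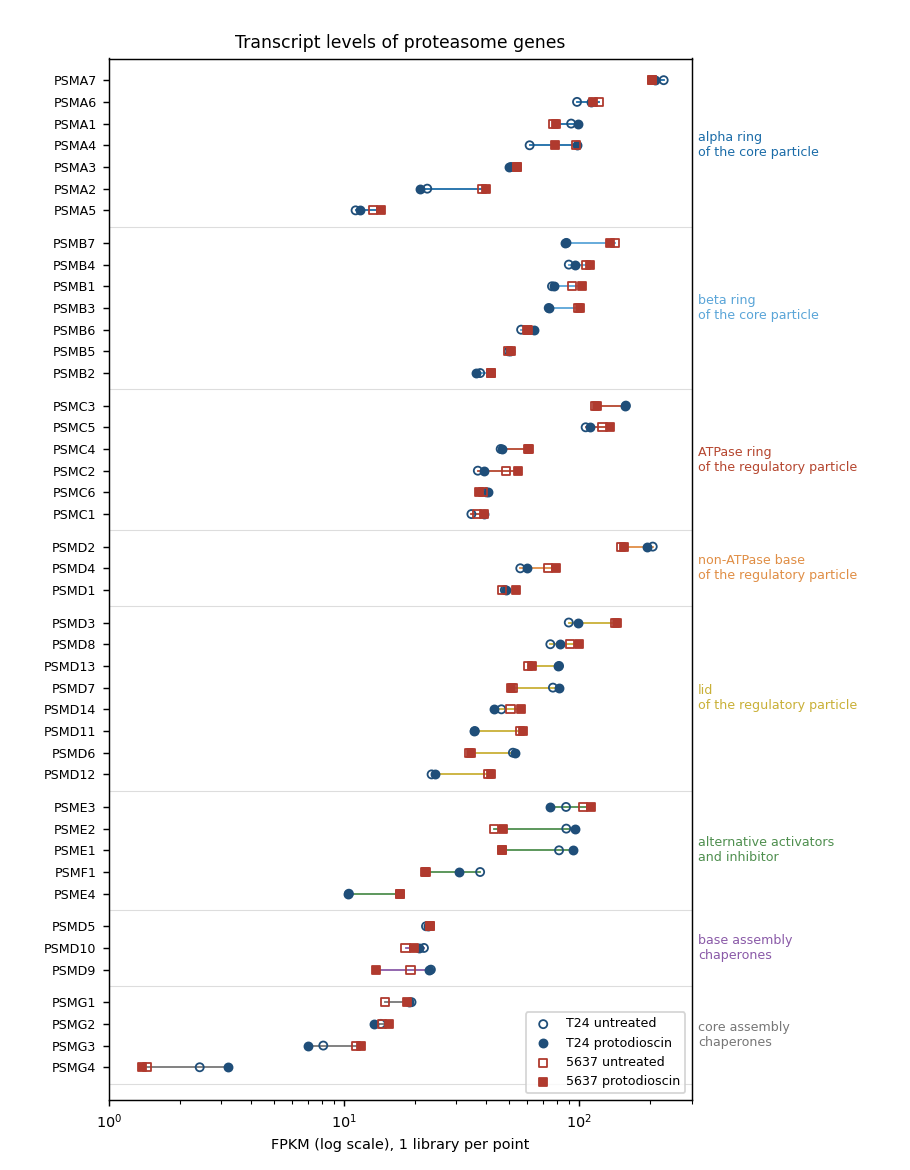
Levels of the 43 measured proteasome genes in FPKM (log axis), grouped by subcomplex and ordered by mean level, with 1 point per library: circles for T24, squares for 5637, open for untreated and filled for protodioscin. Most genes lay between 10 and 228 FPKM, the core assembly chaperones PSMG3 and PSMG4 were lowest, and open and filled symbols of a line mostly overlapped while circles and squares often separated.

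The alpha ring showed the widest range of levels of the core and regulatory particles although its subunits are present in equal number in each particle. PSMA7, an alpha subunit, was the most abundant member at 228 and 209.9 FPKM in untreated and treated T24, against 204 and 204.5 FPKM in 5637. PSMA5, another alpha subunit, was at 11.2 and 11.7 FPKM in T24, against 13.3 and 14.3 FPKM in 5637. The highest mean level was 16.8 times the lowest in the alpha ring, and 2.85 times in the beta ring, 3.67 times in the ATPase ring and 3.64 times in the lid. FPKM corrects for length, but the mRNA level of a subunit is not its amount in the particle.

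The catalytic subunits were at similar levels without and with protodioscin. PSMB5, the chymotrypsin-like subunit, measured 49.97 FPKM in T24 without and 50.7 FPKM with protodioscin, against 49.7 and 50.98 FPKM in 5637. PSMB6, the caspase-like subunit, was at 56.5 and 64.03 FPKM in T24, against 60.2 and 60.1 FPKM in 5637. PSMB7, the trypsin-like subunit, was at 88.1 and 86.7 FPKM in T24, against 141 and 135 FPKM in 5637. PSMB5 and PSMB6 thus overlapped between the lines, and only PSMB7 of the 3 was apart, higher in both 5637 libraries than in both T24 libraries.

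After PSMA7, the most abundant members were PSMD2 and PSMC3. PSMD2, the large scaffold subunit of the base that binds ubiquitin-like domains, was at 205 and 192.9 FPKM in T24, against 150.02 and 155 FPKM in 5637. PSMC3, an ATPase, was at 158 and 157 FPKM in T24, against 117 and 119 FPKM in 5637. Both were higher in the T24 libraries than in the 5637 libraries. The lowest were PSMG4 and PSMG3, which are chaperones of the core. PSMG4 was at 2.43 and 3.22 FPKM in T24, against 1.45 and 1.39 FPKM in 5637, and PSMG3 at 8.14 and 7.03 FPKM in T24, against 11.2 and 11.8 FPKM in 5637. PSMG1 and PSMG2, which pair to start the alpha ring, and the base chaperones PSMD5, PSMD9 and PSMD10 were between 13.4 and 23.3 FPKM in every library, below the median of the subunits they assemble.

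With protodioscin, proteasome transcripts were close to their untreated level in T24. On the log2(FPKM + 1) scale the median difference of the 43 genes, treated minus untreated, was 0.021, beside 0.025 over all 12193 genes compared. The difference was under 0.1 in size for 28 of the 43 (65.1%), against 45.4% of all genes, which include many of lower level and larger counting error. Of the 43, 25 were above 0, against 56.0% of all genes. At a size rule of 0.25 (1.19-fold), 2 members were higher (PSMA4 and PSMG4), where 8.0% of all genes were, and 1 was lower (PSMF1), where 8.58% were.

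In T24 the largest difference was that of PSMA4, an alpha subunit (ENSG00000041357, chromosome 15, 78540405 to 78552419 on GRCh38), at 61.4 FPKM in the untreated library against 97.3 FPKM with protodioscin (0.65 on the log2 scale). In 5637 PSMA4 went the other way, at 96.6 FPKM without and 78.6 FPKM with protodioscin (-0.29). The 2 untreated libraries were thus further apart for PSMA4 than the 2 treated ones, and the treated T24 level was close to the untreated 5637 level. PSMA4 shares exons with no other gene of GENCODE 29. PSMG4 differed by 0.30 in T24, from the low levels given above, at which the counting error is about as large on a transcript of 1000 bases. PSMF1, an inhibitor of the core particle that also assists its assembly, was at 37.8 and 30.6 FPKM in T24 (-0.30), against 22.04 and 22.2 FPKM in 5637.

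Smaller differences in T24 had both signs within the alpha ring and between different caps. PSME1 was at 81.9 FPKM without and 94.3 FPKM with protodioscin (0.20), and PSMA6, an alpha subunit, at 97.7 and 112 FPKM (0.20). PSMB6 differed by 0.18. PSME3, which forms the nuclear cap, was at 87.7 and 74.6 FPKM (-0.23), while PSMG3 differed by -0.19, PSMA7 by -0.12 and the deubiquitinase PSMD14, at 46.6 and 43.2 FPKM, by -0.11. In 5637, PSMA6 was at 121 and 115 FPKM (-0.08), PSME1 at 46.7 and 46.9 FPKM, PSME3 at 103 and 112 FPKM (0.12) and PSMD14 at 50.9 and 56.5 FPKM (0.15). PSMA6, PSME3 and PSMD14 thus had opposite signs in the lines. An annotated gene that shares exons with PSMA6 on the same strand (ENSG00000258790) stood at 5.67 FPKM in T24 without protodioscin and 0.842 FPKM with it, and its part in the PSMA6 values was not tested.

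In 5637 the members also stayed close to the untreated level. The median difference was 0.036, beside 0.043 over 12635 genes, and 29 of 43 (67.4%) differed by less than 0.1, against 46.8% of all genes. Of the 43, 33 were above 0, where 61.5% of all genes were. That count rests on scaling: with median-ratio scaling 16 members were above 0, beside 46.8% of all genes, and with TPM scaling 19, beside 51.4%. At the size rule, 1 member was higher (PSMG1), where 9.31% of all genes were, and 2 were lower (PSMA4 and PSMD9), where 6.4% were.

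PSMD9, a chaperone that brings ATPases of the base together (ENSG00000110801, chromosome 12, 121888731 to 121918297), had the largest difference in 5637, at 19.1 FPKM untreated and 13.7 FPKM treated (-0.46). In T24 it was at 23.3 and 22.8 FPKM (-0.03), so the treated 5637 library was the low one of the 4. PSMD9 shares exons on the same strand with CFAP251, which was at 1.39 and 1.82 FPKM in 5637, and this overlap was not separated here. PSMG1, a core chaperone (ENSG00000183527, chromosome 21, 39174769 to 39183851), was at 14.9 and 18.5 FPKM in 5637 (0.29; 0.23 with median-ratio scaling) and at 19.3 and 18.8 FPKM in T24 (-0.04). The treated 5637 level of PSMG1 was near both T24 levels, and the untreated 5637 library was the low one.

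Further members at the ends of the range in 5637 were the base scaffold PSMD1, at 47.1 and 53.9 FPKM (0.19), and the ATPase PSMC2, at 48.8 and 54.8 FPKM (0.16). The beta subunit PSMB1 was at 93.4 and 103 FPKM (0.14), the ATPase PSMC6 at 38.9 and 37.6 FPKM (-0.05) and PSMB7 differed by -0.06. In T24, PSMD1 was at 48.2 and 48.7 FPKM, PSMC2 at 36.97 and 39.3 FPKM, PSMB1 at 76.4 and 78.1 FPKM and PSMC6 at 40.3 and 40.9 FPKM. The non-ATPase base and the lid had medians of 0.11 and 0.037 in 5637 and of 0.014 and 0.033 in T24, beside 0.043 and 0.025 over all genes compared in 5637 and T24.

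**Figure D2:**
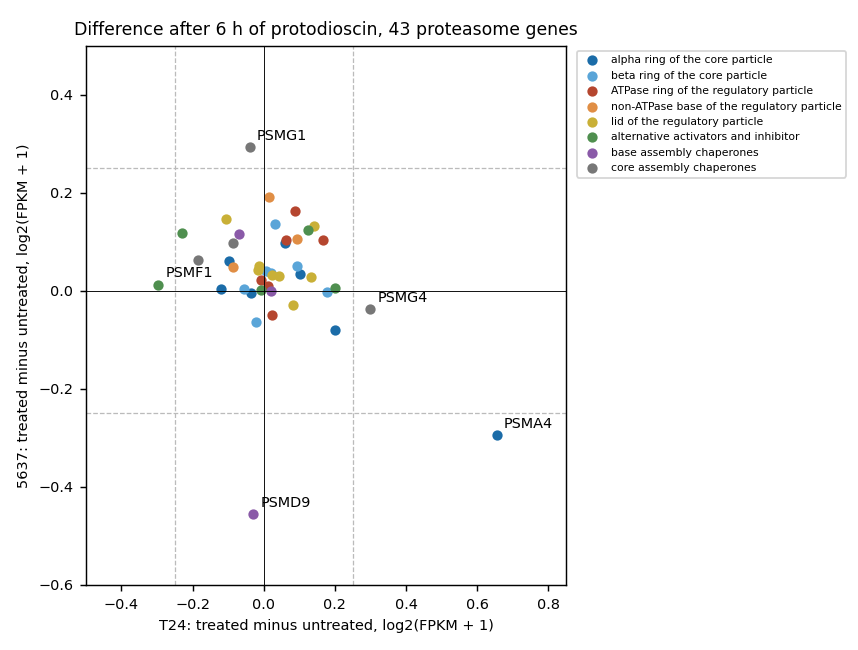
Treated minus untreated log2(FPKM + 1) of the 43 genes in T24 (horizontal) and 5637 (vertical), coloured by subcomplex, with dashed lines at 0.25 in either direction. Most points lie within the dashed square; PSMA4, PSMG4 and PSMF1 lie outside it in T24, PSMA4, PSMD9 and PSMG1 in 5637, and PSMA4 alone is outside in both, with opposite signs.

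Over both lines, no proteasome gene passed the test for treatment. The test was a limma model of the 4 libraries with a term for the line and a term for protodioscin, with p-values adjusted by Benjamini-Hochberg over 12893 genes. It called 0 of 43 members at an adjusted p below 0.05, as it called 0% of all genes. At an unadjusted p below 0.05 it also held 0 of 43 members, against 9.52% of all genes. The lowest adjusted p by limma was 0.528, that of the lid subunit PSMD8 (coefficient 0.14, SE 0.058). PSMD8 was at 75.2 and 83.02 FPKM in T24, against 91.1 and 99.99 FPKM in 5637. The sign of the difference was the same in both lines for 21 of the 43 (48.8%), against 59.0% of all genes compared in both. With 1 residual degree of freedom, taken from the difference between the lines at their different doses, the fit has little power for small changes.

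Genes that regulate or assist the proteasome also had no call for treatment. Of 9 genes of the NFE2L1 pathway, 7 were above 0 in T24 (all genes 56.0%) and 7 in 5637 (all genes 61.5%), with medians of 0.089 and 0.091, beside 0.025 and 0.043 over all genes. NFE2L1 itself was at 106 and 115 FPKM in T24, against 93.3 and 97.1 FPKM in 5637. NFE2L2, its relative that controls antioxidant genes, was at 41.7 and 50.2 FPKM in T24 (0.26), against 39.1 and 44.8 FPKM in 5637 (0.19; limma adjusted p = 0.482). MAFK, a small MAF partner of both factors, was at 11.9 and 9.32 FPKM in T24 (-0.32), against 11.4 and 10.2 FPKM in 5637 (-0.14; limma adjusted p = 0.515). NFE2L2 and MAFK were the 2 of the 9 at an unadjusted limma p below 0.05, where 9.52% of all genes were, and 0 of the 9 passed after adjustment.

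Of 11 ubiquitin, E1 and shuttle factor genes, 6 were above 0 in T24 (all genes 56.0%) and 8 in 5637 (all genes 61.5%), with medians of 0.039 and 0.025. UBB, a polyubiquitin gene, was at 489 and 539 FPKM in T24, against 205 and 226 FPKM in 5637, the same difference of 0.14 in each line. Of 11 partners of the proteasome outside the naming rule, 5 were above 0 in T24 and 7 in 5637, beside the same 56.0% and 61.5% of all genes. At the size rule 0 were higher or lower, where 8.0% and 8.58% of all genes were in T24 and 9.31% and 6.4% in 5637. Among them were the ubiquitin receptor ADRM1, at 155 and 161 FPKM in T24, against 112 and 115 FPKM in 5637, and the core maturation factor POMP, at 28.9 and 27.04 FPKM in T24, against 36.3 and 39.6 FPKM in 5637. Limma called 0 of these 22 genes for treatment.

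Among the 43 members, the lines differed far more than the treatments. The median size of the difference was 0.38 between the lines, 0.083 with treatment in T24 and 0.05 in 5637. Over all genes it was 0.43, 0.112 and 0.109, so the contrast was not particular to the members. In the same limma fit, 30 of the 43 members differed between T24 and 5637 at an adjusted p below 0.05. Of these, 11 were higher in T24 (25.6%), where 35.1% of all genes were, and 19 were higher in 5637 (44.2%), where 33.9% of all genes were. With TPM scaling 14 were higher in T24 and 15 in 5637. The share called in either direction was thus near that of all genes in total, and its split moved with scaling. The median difference, T24 minus 5637, was -0.11, beside 0.014 over all genes. A line was represented by an untreated and a treated library, and the fit removes the treatment difference that the lines share. The error behind these p-values came from how far the treatment difference of a gene differed between the lines. That error was moderated by the trended prior variance, and it does not measure the spread between independent cultures.

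**Figure D3:**
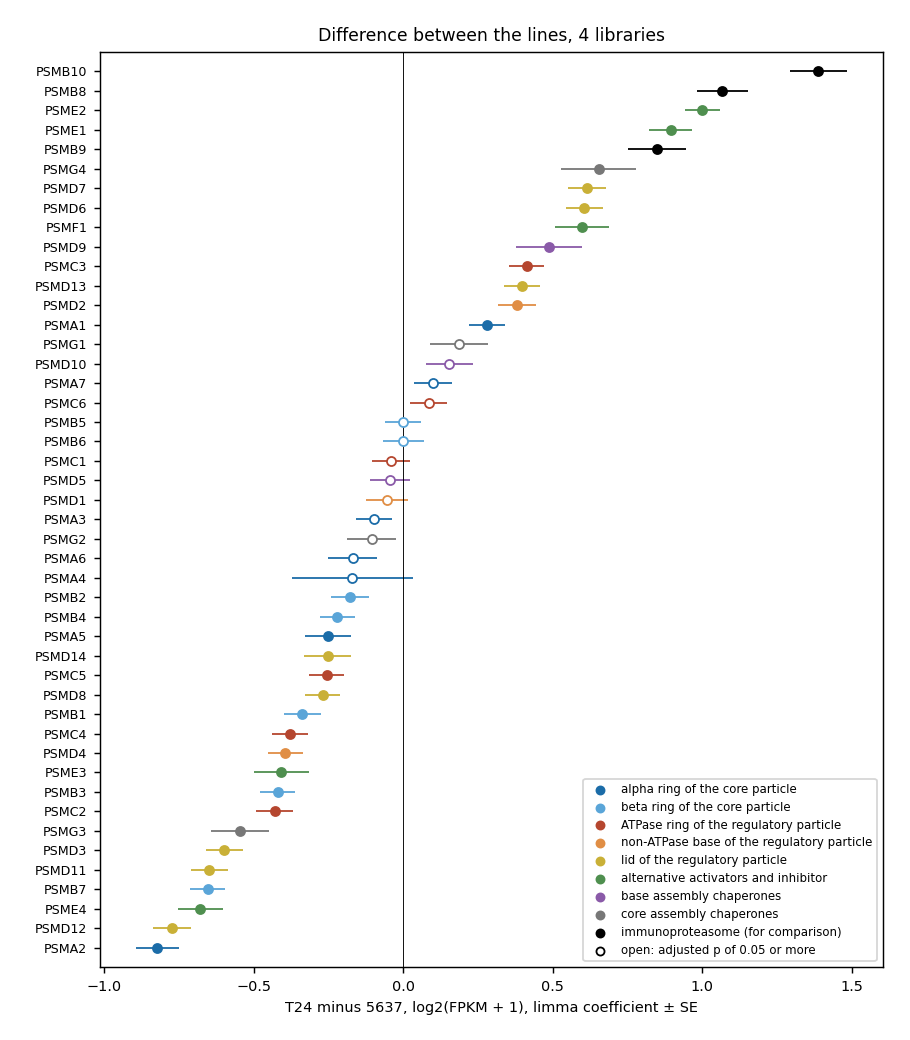
T24 minus 5637 on log2(FPKM + 1), as limma coefficient with its standard error over 4 libraries, for the 43 proteasome genes and the 3 immunoproteasome subunits (black), with filled points where the adjusted p was below 0.05. PSME2 and PSME1 stand beside the immunoproteasome subunits at the top, lid subunits lie at both ends, and PSMA2 and PSMD12 are lowest.

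The widest difference was that of the interferon-inducible cap. PSME2 (ENSG00000100911, chromosome 14, 24143362 to 24147570) measured 87.9 FPKM in T24 without and 95.9 FPKM with protodioscin, against 43.5 and 47.5 FPKM in 5637, a coefficient of 0.9999 (SE 0.059, limma adjusted p = 3.48e-05). PSME1 (ENSG00000092010, chromosome 14, 24136158 to 24138967) measured 81.9 and 94.3 FPKM in T24, against 46.7 and 46.9 FPKM in 5637, a coefficient of 0.89 (SE 0.071, adjusted p = 0.000109). The 2 genes, whose proteins form 1 ring together, are 4394 bases apart and were at nearly equal levels in each library, and both T24 libraries exceeded both 5637 libraries. PSME2 shares exons with RNF31 on the opposite strand, which was at 3.08 to 3.79 FPKM. PSME1 shares exons with EMC9 on the opposite strand, which was at 13.8 and 14.2 FPKM in T24, against 10.7 and 10.6 FPKM in 5637. Libraries without strand do not separate such pairs, and the part of these overlaps in the values was not tested.

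The other caps did not share this pattern. PSME3 was higher in 5637, at 103 and 112 FPKM against 87.7 and 74.6 FPKM in T24 (-0.41, SE 0.092, limma adjusted p = 0.0084). PSME4, the large single-chain cap linked to histone turnover, was at 17.28 and 17.31 FPKM in 5637 against 10.5 and 10.4 FPKM in T24 (-0.68, SE 0.075, adjusted p = 0.000409). The inhibitor PSMF1 was higher in T24 (0.60, adjusted p = 0.00158).

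The 3 immunoproteasome subunits, outside the naming rule, stood on the same side as PSME1 and PSME2. PSMB8 was at 24.7 and 28.1 FPKM in T24, against 12.3 and 11.8 FPKM in 5637 (1.07), and PSMB10 at 17.8 and 18.6 FPKM in T24, against 6.88 and 5.82 FPKM in 5637 (1.39). PSMB9 was at 8.77 and 8.61 FPKM in T24, against 4.10 and 4.68 FPKM in 5637 (0.85). All 3 had a limma adjusted p of 0.000486 or less, where 35.1% of all genes were called higher in T24 at an adjusted p below 0.05. Their sum made up 20.9% and 21.5% of the summed FPKM of the 3 immunoproteasome and the 3 constitutive active subunits in T24, and 8.49% and 8.31% in 5637. The share was thus nearly the same in the untreated and the treated library of a line. PSMB8 and PSMB9 share exons with each other on opposite strands. On the same strand, PSMB9 shares exons with PSMB8-AS1 and PSMB10 with ENSG00000261884. The part of these overlaps in the values was not tested.

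All 8 lid subunits passed the test between the lines, with 3 higher in T24 and 5 higher in 5637, where 35.1% and 33.9% of all genes were. PSMD7, a structural partner of PSMD14, was at 77.1 and 81.8 FPKM in T24, against 52.1 and 51.05 FPKM in 5637 (0.61, limma adjusted p = 0.00031). PSMD6 was at 52.1 and 52.96 FPKM in T24, against 33.8 and 34.6 FPKM in 5637 (0.61, adjusted p = 0.000283). In the opposite direction, PSMD12 was at 23.5 and 24.2 FPKM in T24, against 41.05 and 41.9 FPKM in 5637 (-0.77, adjusted p = 0.000124). PSMD11, which clamps the regulatory particle to the core, was at 35.9 and 35.5 FPKM in T24, against 55.7 and 57.3 FPKM in 5637 (-0.65, adjusted p = 0.000225). PSMD3 (-0.60), PSMD8 (-0.27) and PSMD14 (-0.25) were also higher in 5637, and PSMD13 (0.40) in T24. The lid genes thus differed in both directions, although their mRNAs code for subunits present in equal number.

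In the core, 2 alpha and 5 beta subunits were higher in 5637, where 33.9% of all genes were. Higher in T24 was 1 alpha subunit, where 35.1% of all genes were. PSMA2 (ENSG00000106588, chromosome 7, 42916857 to 42932223) was furthest apart, at 22.5 and 20.999 FPKM in T24, against 38.4 and 40.1 FPKM in 5637 (-0.82, SE 0.072, limma adjusted p = 0.000157). It shares exons with MRPL32 on the opposite strand, a gene at 21.7 and 19.9 FPKM in T24, against 43.6 and 40.5 FPKM in 5637 that was also higher there. On the same strand PSMA2 shares exons with ENSG00000256646, at 0 and 0.0562 FPKM in T24, against 1.91 and 0.273 FPKM in 5637. How far reads of either gene were counted for PSMA2, or the reverse, was not tested. PSMB7 was next (-0.65, SE 0.058, adjusted p = 0.000172), followed by PSMB3 (-0.42), PSMB1 (-0.34), PSMA5 (-0.25), PSMB4 (-0.22) and PSMB2 (-0.18). PSMA1 was higher in T24 (0.28). The difference for PSMA4 had the widest error (-0.17, SE 0.20), and its treatment differences were opposite.

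Of the 9 base subunits, the ATPase PSMC3 (0.41) and the scaffold PSMD2 (0.38) were higher in T24, and PSMC2 (-0.43), PSMD4 (-0.39), PSMC4 (-0.38) and PSMC5 (-0.26) were higher in 5637. PSMD4 is a receptor for ubiquitin chains. PSMC1, PSMC6 and PSMD1 did not pass the test. Over all genes, 35.1% were higher in T24 and 33.9% in 5637, the background for these 9 and for the 7 chaperones. Of the 7 chaperones, PSMG4 (0.65, limma adjusted p = 0.00431) and PSMD9 (0.49, adjusted p = 0.00883) were higher in T24 and PSMG3 (-0.55, adjusted p = 0.00309) in 5637. PSMG4 was at 3.22 FPKM or less in every library, and its adjusted p was 0.0683 when all genes above 0 FPKM were fitted. PSMG4 shares exons with TUBB2B on the opposite strand, which was also at higher levels in T24 (11.3 and 12.2 FPKM, against 5.66 and 6.36 FPKM), and its part in the PSMG4 values was not tested. In all, exons of 17 members overlapped opposite-strand genes and those of 6 members overlapped same-strand genes.

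Among partners outside the naming rule, SEM1, a small lid subunit, had the widest difference, at 12.8 and 12.1 FPKM in T24, against 33.4 and 37.3 FPKM in 5637 (-1.43, limma adjusted p = 3.16e-05). Of the 11 partners, 4 were higher in T24 and 5 in 5637, beside 35.1% and 33.9% of all genes, which also hold as the background for both lists that follow. Of the 9 NFE2L1 pathway genes, 3 were higher in T24, among them NFE2L1 (0.21, adjusted p = 0.0204), and 2 were higher in 5637. Of the 11 ubiquitin genes, 2 were higher in T24, among them UBB (1.25, adjusted p = 1.65e-05), and 7 were higher in 5637.

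The side on which a member stood often went with its chromosome, a grouping made after the values were seen. The 7 genes on chromosome 17 (PSMB3, PSMB6, PSMC5, PSMD3, PSMD11, PSMD12 and PSME3) had a median of -0.42, T24 minus 5637. Of them, 6 were called as higher in 5637, where 33.9% of all genes were, and PSMB6 was at 0. All 807 tested genes of chromosome 17 had a median of -0.12. The 3 genes on chromosome 7 (PSMA2, PSMC2, PSMG3) had a median of -0.55, and so did the 649 tested genes there, of which 85.8% were below 0. On chromosome 16, PSMD7 was at 0.61, beside a median of 0.55 over 598 genes. On chromosome 11 the 3 members were all above 0 with a median of 0.40, beside 0.23 over 733 genes.

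In all, 35 of 43 members (81.4%) had the same sign as the median of their chromosome, against 63.0% of all 12893 genes. The exceptions included PSMG1 and PSMD9, which were above 0 on chromosomes with medians of -0.32 and -0.11. PSME1 and PSME2 were far above the median of chromosome 14 (0.094), on which 5 other measured members lay between -0.17 and 0.085. DNA copy number was not analysed here, and its part in these values was not tested.

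**Figure D4:**
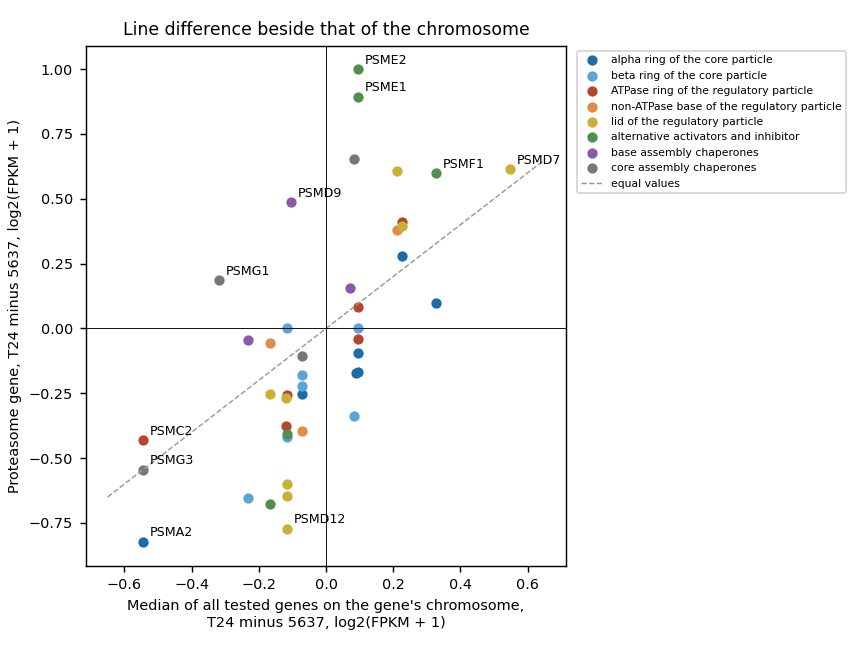
T24 minus 5637 on log2(FPKM + 1) of each of the 43 genes (vertical) against the median of all tested genes on its chromosome (horizontal), coloured by subcomplex, with a dashed line of equal values. PSMA2, PSMC2 and PSMG3 at the left and PSMD7 at the right lie with their chromosomes, while PSME1 and PSME2 lie far above the line.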

How the data were processed

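Gene-level FPKM of 4 libraries, 1 per group, were deposited by the authors. Per the submitters' processing notes, Trimmomatic, HISAT2 and StringTie were used with GRCh38, with versions not stated there. Per the labels' protocols, libraries came from total RNA with a TruSeq v2 kit, which does not mark strand. Symbols came from a gene name table and GENCODE 29, and exon overlaps from bedtools 2.31.1. Values were analysed as log2(FPKM + 1), which understates changes of low genes. Within a line, genes at 1 FPKM in 1 of the 2 libraries were compared by size only. The fit across lines used limma 3.58.1 in R 4.3.3 with a trended prior variance, for genes at 1 FPKM in at least 2 libraries, and was tested on simulated data. Relative depth came from the spacing of low values on single-transcript genes, and counting errors cover counting only. The members, lists and size rule were chosen with earlier results of these data known. Values in every library are given for members at the ends of each comparison (5 per direction), the 3 active subunits and the 3 highest and lowest. Beyond that rule, PSMD8, NFE2L1, UBB, ADRM1, POMP and SEM1 were chosen after their values were seen. 1 listed gene is not reported here. Of the marker lists, fibroblast markers summed to 1.08 to 7.99 FPKM and erythroid markers to at most 0.325 FPKM, and mesenchymal markers to 485 FPKM or more. Alternatives changed the pseudocount, filter, scaling, exon-sharing genes, prior variance and model terms. The labels do not say whether cultures were independent.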

Additional observations from a re-analysis of the deposited data

Results flagged for a closer look

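PSMA4 stood out because its treated minus untreated difference was 0.655 on the log2 scale in T24 and -0.294 in 5637, past the size rule of 0.25 with opposite signs. With 1 library per group the difference between the lines was not tested. No other member was past the size rule in both lines.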

How the results depend on the processing

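Limma called 0 members for treatment under all 10 alternatives run. It called 30 for the difference between the lines, and 23 to 30 under the alternatives, with 23 when all genes above 0 FPKM were fitted. The median difference in 5637 of 0.0364 turned to -0.0057 with TPM scaling and -0.0243 with median-ratio scaling, where the medians of all genes were 0.0055 and -0.0117, and the median in T24 stayed between 0.0154 and 0.0337. PSMF1 in 5637, at 0.0127, turned to -0.0291 with TPM, -0.0465 with median-ratio and -0.0135 with quantile scaling. The size rule held for 2 or 3 members in each line under the other settings. With a rule of 0.2, chosen after seeing the data, it held for 5 in T24 (PSME1 and PSME3 in addition) and 3 in 5637. PSMG4 in T24 ranged from 0.15 with a pseudocount of 5 to 0.39 with 0.1. PSMD9 and PSMF1 dropped out where exon-sharing genes were left out. The fit for treatment has cell line as a term and so pairs the libraries of a line. Leaving out 1 library would leave that fit no residual degree of freedom. Depth limits members of low level such as PSMG4.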
